A study of Mus musculus with 6 samples.

Results

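The genes described here are 41 mitosis and spindle genes, chosen by name from the genes that build, drive or monitor the mitotic spindle. They were chosen with earlier results of these data known, so their counts are not independent of these data. All 41 symbols were found among the 18437 genes of the deposited table. The samples were tongue tumours of C57BL/6 mice, raised by orthotopic injection of 4MOSC1 cells, a line of murine oral squamous carcinoma used as a model of head and neck cancer. The 3 control libraries came from tumours of 4MOSC1-con cells, and the 3 LIGHT libraries from tumours of 4MOSC1-LIGHT cells, which overexpress LIGHT, a ligand of the TNF superfamily whose gene is Tnfsf14. The labels name no other allele or agent in either group, and the sources used here do not give the age of the mice, the promoter that drove LIGHT or whether the cells were 1 clone. RNA from whole tumour tissue was depleted of ribosomal RNA and sequenced, with levels expressed as TPM, a share of each library's RNA that corrects for gene length.

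At the entry into mitosis, B-type cyclins bind the kinase Cdk1, and Cdk1, Plk1 and the Aurora kinases drive spindle assembly and chromosome condensation. Kinetochores built on centromeric chromatin attach the chromosomes to microtubules, and a checkpoint that includes Mad2l1, Bub1b and Ttk holds back the anaphase-promoting complex until the attachments are made. Cdc20 then activates that complex, which marks cyclin B and securin for destruction, so that separase can open the cohesin rings. Most of these genes are transcribed in a burst in the G2 phase, which makes their RNA a common readout of how many cells in a tumour are cycling. In a bulk specimen, fewer cells of a type and less RNA per cell cannot be told apart.

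In LIGHT tumours 28 of the 41 genes fell and 0 rose (limma on log2(TPM + 1), Benjamini-Hochberg adjusted p under 0.05 over the 13167 genes that reached 1 TPM in 3 or more libraries). Of all tested genes, 5.41% were called lower and 17.7% higher. At an unadjusted p under 0.05 the counts were 36 lower and 0 higher among the 41 genes, and the shares of all tested genes were 9.9% and 26.9%. All 41 genes passed the filter on low values in both groups, since their lowest value in any library was 3.84 TPM. The median difference in log2(TPM + 1), LIGHT minus control, was -0.45 over the 41 genes and 0.09 over all tested genes. The mean TPM was 27.5% lower in LIGHT tumours for the median gene, and the largest difference was 39.6%, in Bub1. The values were negative for 40 genes and positive for 1, Pttg1, which encodes securin. In 32 of the 41 genes the 3 LIGHT libraries all lay below the 3 control libraries, a pattern seen in 11.6% of all tested genes. The reverse pattern, all LIGHT libraries above, was seen in 0 of the 41 and in 29.6% of all tested genes.

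**Figure D1:**
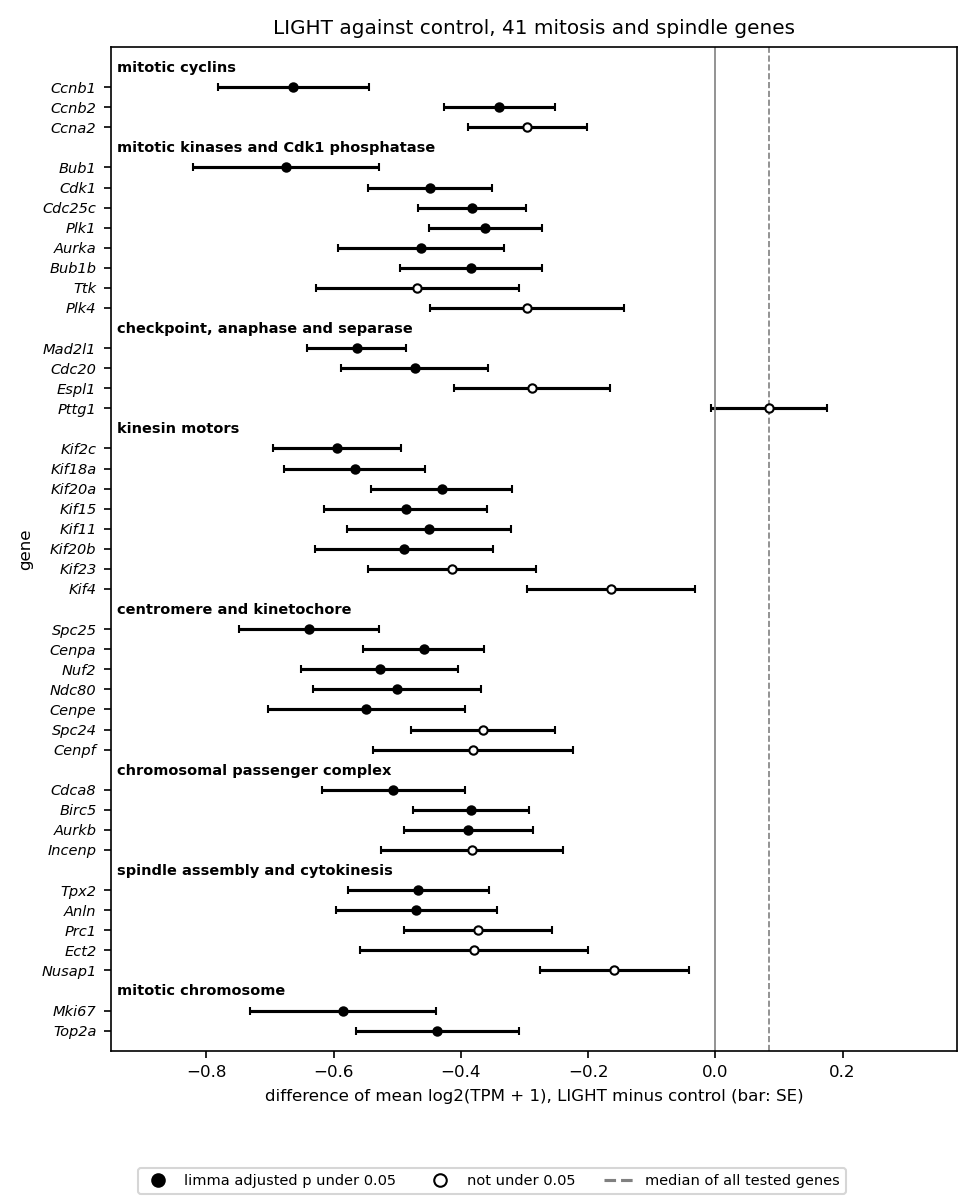
Difference of mean log2(TPM + 1), LIGHT minus control, for each of the 41 genes by role, with its standard error. Filled points are the 28 genes past the threshold, and the dashed line is the median of all tested genes, 0.09.

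The labels held for the overexpressed gene: Tnfsf14 was listed at 0.66, 0.53 and 0.79 TPM in the control libraries and at 26.2, 25.9 and 23.9 TPM in the LIGHT libraries. Among all tested genes 2325 were called higher and 712 lower, and the higher calls were 76.6% of the total. That share was 51.0% with trimmed-mean scaling, 43.6% with quantile normalization, 92.7% when the libraries were brought to an equal mean of the basal keratinocyte list, and 86.9% with a skeletal muscle covariate. The 3 scalings moved the median difference of all tested genes from 0.09 to -0.01, -0.04 and 0.25. The defining epithelial markers of the labelled carcinoma were abundant, with Krt14 at 11421 TPM and Krt5 at 4875 TPM on average in control tumours and Krt14 at 8917 TPM and Krt5 at 4906 TPM in LIGHT tumours. Read depth cannot be recovered from TPM and is unknown here. Because the labels tie no library to an animal, the p-values reflect only library-to-library spread, which may be technical.

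The number of called genes depended on single libraries, while 40 of 41 differences stayed negative without any 1 library. The count of falls was 10 without control replicate 1, 7 without control replicate 2, 20 without control replicate 3, 6 without LIGHT replicate 2 and 4 without LIGHT replicate 3, at medians between -0.54 and -0.38. Ccnb1, Kif2c, Mad2l1 and Spc25 passed without any 1 of the 6 libraries. The count was 36 without LIGHT replicate 1, 36 with trimmed-mean scaling and 37 with quantile normalization. Each of these 3 sets contained the 28 genes. The number of all tested genes called lower moved as well. It was 712 with TPM as deposited, 1730 with trimmed-mean scaling and 1811 with quantile normalization, each of 13167. It was 773 of 12928 when LIGHT replicate 1 was dropped, and 314 to 420 when any other library was.

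The libraries had a common order over the genes. Summed over all 41 genes, the level was 1703, 1688 and 1460 TPM in control replicates 1 to 3 and 1347, 1153 and 1160 TPM in LIGHT replicates 1 to 3. The sum was thus 24.6% lower in LIGHT tumours, 1220 ± 110 against 1617 ± 136 TPM (mean ± SD, n = 3 each). Control replicate 3 was the lowest control library for 39 of the 41 genes, and LIGHT replicate 1 was the highest LIGHT library for 39. The 2 groups come closest at these libraries. LIGHT replicate 1 lay below control replicate 3 in 32 genes, and LIGHT replicates 2 and 3 each lay below it in 40. LIGHT replicate 2 was the lowest of the 6 libraries for 29 genes.

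**Figure D2:**
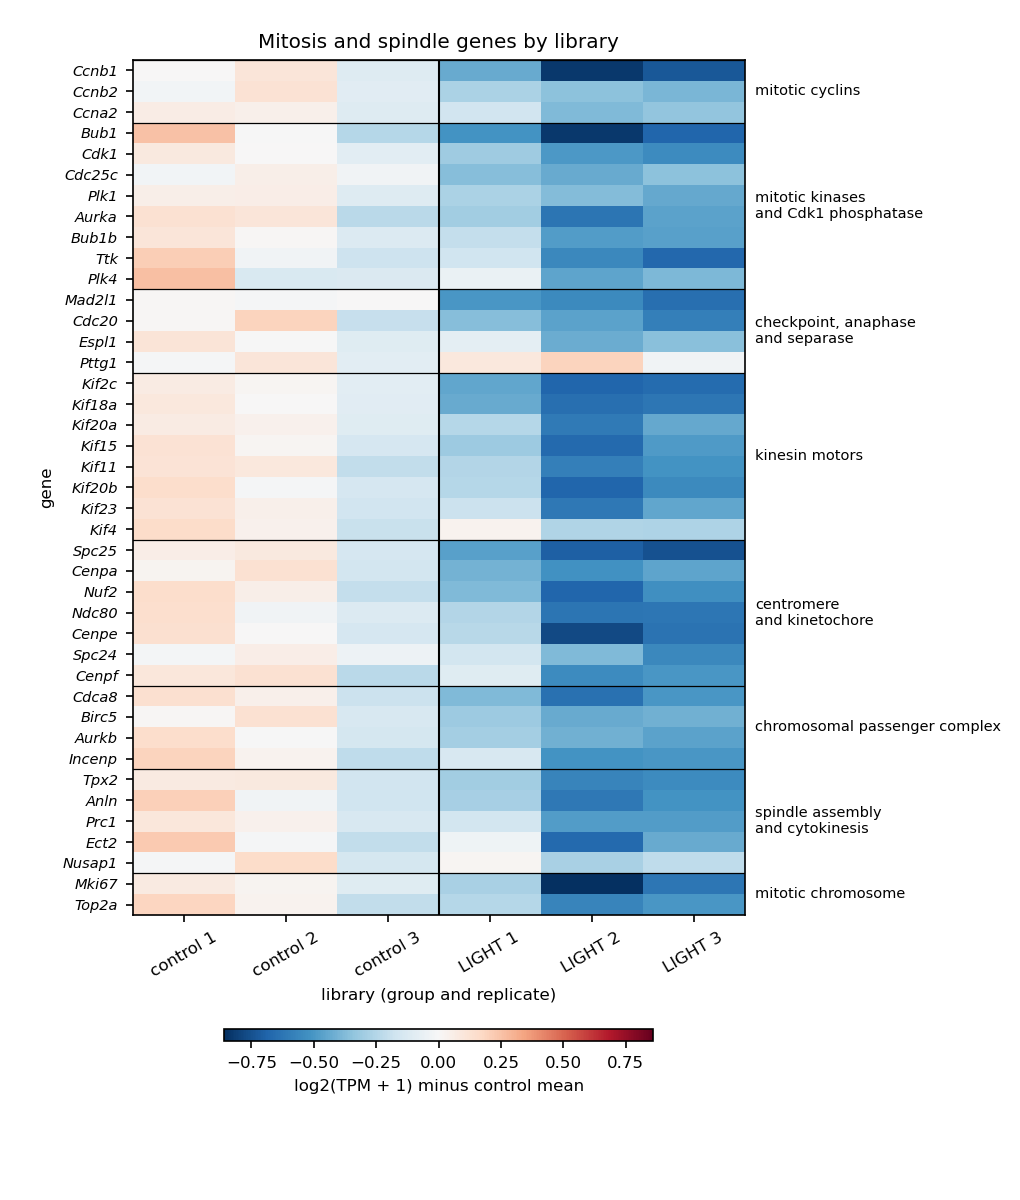
log2(TPM + 1) of each of the 41 genes in each library, minus the gene's control mean, with blue below and red above it. LIGHT replicates 2 and 3 lie below control replicate 3 in 40 of the 41 genes, and LIGHT replicate 1 in 32.

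Of the 3 mitotic cyclins 2 fell. Ccnb1 encodes cyclin B1, the principal activator of Cdk1 at mitotic entry. It was at 70.4, 75.4 and 64.9 TPM in the control libraries and at 51.6, 39.0 and 42.0 TPM in the LIGHT libraries. The groups did not overlap, and the mean was 37.1% lower (log2 difference -0.66, SE 0.12, limma adjusted p = 0.00897). Ccnb2, cyclin B2, was at 67.3, 74.9 and 64.0 TPM in control and 56.7, 53.5 and 51.9 TPM in LIGHT libraries. It fell by less, 21.4% in mean TPM (log2 difference -0.34, SE 0.09, limma adjusted p = 0.0303). Ccna2 encodes cyclin A2, which acts from S phase to early mitosis. Its values were 62.8, 62.0 and 55.7 TPM in control and 53.5, 45.9 and 47.3 TPM in LIGHT libraries, which did not overlap but missed the threshold (limma adjusted p = 0.0570).

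In the control tumours Ccnb1 and Ccnb2 stood at nearly equal TPM, with a ratio of 1.05, 1.01 and 1.01 in the 3 libraries. In LIGHT tumours the ratio was 0.91, 0.73 and 0.81, below every control value. An exact two-sided permutation test gave p = 0.1, the smallest that 3 against 3 libraries allow, and 0.2 after adjustment over the 10 gene pairs compared in this way. The ratio of Ccna2 to Cdk1 moved in the other direction, from 1.95 ± 0.05 to 2.18 ± 0.07 (mean ± SD, n = 3 each), with no overlap and the same exact p. None of the 10 pairs could pass 0.05 in this design.

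Of the 8 genes for mitotic kinases and the Cdk1 phosphatase 6 fell. Bub1 encodes a kinase of the kinetochore that recruits checkpoint and cohesin-protecting proteins. It was at 24.2, 20.1 and 16.8 TPM in control and 13.8, 10.9 and 12.2 TPM in LIGHT libraries (log2 difference -0.67, SE 0.15, limma adjusted p = 0.0164). Its LIGHT values were all below the lowest control value, and its difference was the largest of the 41 genes. Its call was lost without LIGHT replicate 2 (limma adjusted p = 0.0502) or LIGHT replicate 3 (0.0534). Plk1, the polo-like kinase of centrosome maturation and mitotic exit, was at 50.4, 50.6 and 44.9 TPM in control and 40.1, 37.3 and 35.5 TPM in LIGHT libraries (log2 difference -0.36, limma adjusted p = 0.0249). Plk1 was the most abundant of this group and did not overlap between groups.

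Cdk1 itself fell from 30.9 ± 1.93 to 22.4 ± 2.05 TPM (mean ± SD, n = 3 each; log2 difference -0.45, limma adjusted p = 0.0167). Cdc25c, the phosphatase that removes the inhibitory marks from Cdk1, fell from 15.1 ± 0.52 to 11.4 ± 0.37 TPM (limma adjusted p = 0.0181), with the smallest standard error of the group. Aurka, the Aurora kinase of the spindle poles, fell by 0.46 on the log2 scale (limma adjusted p = 0.0397), and Bub1b, the checkpoint protein BubR1, fell by 0.38 (limma adjusted p = 0.0439). Ttk, the checkpoint kinase Mps1, had a log2 difference of -0.47 with overlapping groups (limma adjusted p = 0.0713). Plk4, the kinase that starts centriole duplication, was at 13.2, 9.89 and 9.92 TPM in control and 10.5, 7.72 and 8.14 TPM in LIGHT libraries. LIGHT replicate 1 exceeded 2 of the control libraries, and the difference missed the threshold (limma adjusted p = 0.201).

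In the group of checkpoint, anaphase and separase genes 2 of 4 fell. Mad2l1 encodes Mad2, the checkpoint protein that binds and restrains Cdc20. It had the smallest standard error of the 41 genes and was at 61.1, 60.1 and 60.6 TPM in control and 42.6, 41.3 and 38.3 TPM in LIGHT libraries. The group means were 60.6 and 40.7 TPM, with an SD of 0.47 TPM in control and a wider 2.19 TPM in LIGHT libraries. The adjusted p was the smallest of the 41 (log2 difference -0.56, SE 0.08, limma adjusted p = 0.00365). Cdc20 fell from 74.4 ± 10.1 to 53.2 ± 4.11 TPM (mean ± SD, n = 3 each; limma adjusted p = 0.0248). Espl1, separase, was at 9.25, 8.48 and 7.84 TPM in control and 7.98, 6.09 and 6.41 TPM in LIGHT libraries, with LIGHT replicate 1 inside the control range (limma adjusted p = 0.134).

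Pttg1 encodes securin, the inhibitor of separase and a target of the anaphase-promoting complex. It was the most abundant of the 41 genes and did not share their pattern: 119, 128 and 112 TPM in control and 128, 137 and 117 TPM in LIGHT libraries. The groups overlapped, with a log2 difference of 0.08 (SE 0.09, limma adjusted p = 0.543) that was -0.02 with trimmed-mean scaling and -0.00081 with quantile normalization. As deposited, LIGHT replicates 1 and 2 lay above its control mean and LIGHT replicate 3 below it.

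**Figure D3:**
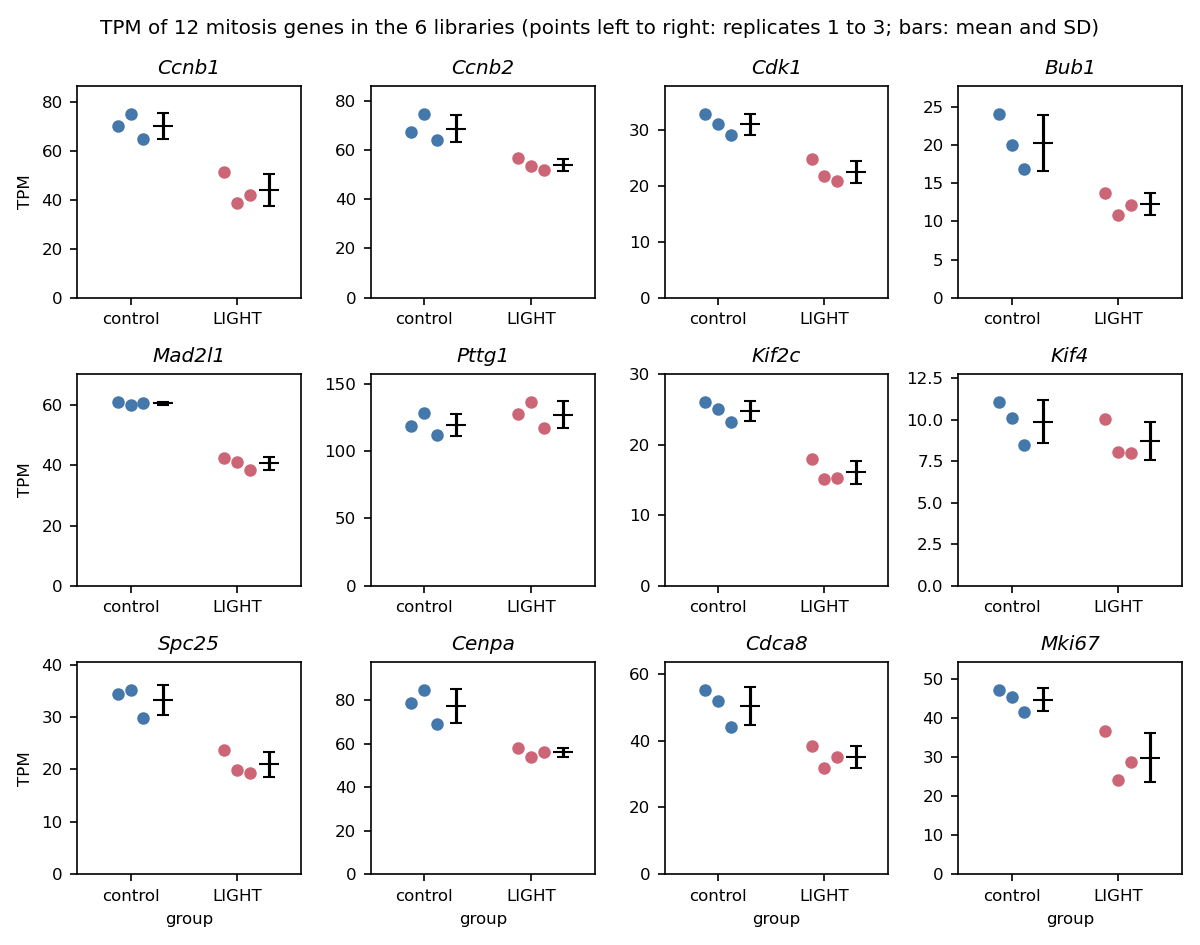
TPM of 12 of the genes in each library, with the mean and SD of each group (n = 3); every axis starts at 0. The 2 groups separate for Ccnb1, Ccnb2, Cdk1, Bub1, Mad2l1, Kif2c, Spc25, Cenpa, Cdca8 and Mki67 and overlap for Pttg1 and Kif4.

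Of the 8 kinesin motors 6 fell. Kif2c, a microtubule-depolymerising kinesin that corrects faulty attachments at centromeres, was at 26.1, 25.1 and 23.2 TPM in control and 17.97, 15.1 and 15.3 TPM in LIGHT libraries (log2 difference -0.60, SE 0.10, limma adjusted p = 0.00725). The groups were far apart, and with Mad2l1 it was called in 17 of 19 other settings, more than any other of the genes. Kif18a, which dampens chromosome oscillations at the metaphase plate, was the scarcest of the 41 at 7.09, 6.63 and 6.10 TPM in control and 4.64, 3.84 and 3.94 TPM in LIGHT libraries (limma adjusted p = 0.0119). Kif20a, a motor of the central spindle needed for cytokinesis, was the most abundant kinesin, at 39.2, 38.3 and 34.7 TPM in control and 31.3, 24.2 and 27.3 TPM in LIGHT libraries (limma adjusted p = 0.0300). Kif11 and Kif15, which push the spindle poles apart, fell by 0.45 and 0.49 on the log2 scale, and Kif20b fell by 0.49, with limma adjusted p between 0.0316 and 0.0417.

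Kif23, the motor subunit of centralspindlin at the midbody, did not overlap between groups but missed the threshold (33.8 ± 3.52 and 25.3 ± 4.03 TPM, mean ± SD, n = 3 each; limma adjusted p = 0.0590). Kif4, a chromosome-bound kinesin, was at 11.1, 10.1 and 8.49 TPM in control and 10.1, 8.07 and 8.01 TPM in LIGHT libraries. LIGHT replicate 1 lay within the control range, and the log2 difference was -0.16 (SE 0.13, limma adjusted p = 0.406).

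Of the 7 centromere and kinetochore genes 5 fell. The Ndc80 complex, the kinetochore's main microtubule hook, has the subunits Ndc80, Nuf2, Spc24 and Spc25, and all but Spc24 passed the test. Spc25 was at 34.5, 35.1 and 29.9 TPM in control and 23.7, 20.0 and 19.3 TPM in LIGHT libraries (log2 difference -0.64, SE 0.11, limma adjusted p = 0.00795). Its partner Spc24 was at 29.0, 30.5 and 28.5 TPM in control and 26.2, 22.3 and 19.6 TPM in LIGHT libraries (log2 difference -0.37, limma adjusted p = 0.0539). The ratio of Spc24 to Spc25 was 0.89 ± 0.06 in control and 1.08 ± 0.05 in LIGHT tumours without overlap (exact two-sided permutation p = 0.1, 0.2 adjusted over 10 pairs). In contrast, the ratio of Ndc80 to Nuf2 was 0.68 ± 0.04 and 0.69 ± 0.06 (exact two-sided permutation p = 0.8).

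Cenpa, the histone variant that marks centromeres, was at 78.6, 84.6 and 69.1 TPM in control and 58.1, 53.6 and 56.0 TPM in LIGHT libraries (log2 difference -0.46, SE 0.10, limma adjusted p = 0.0141). Every LIGHT value was below every control value. Cenpe, a kinesin that carries chromosomes along microtubules to the plate, fell from 12.5 ± 1.32 to 8.33 ± 1.87 TPM (mean ± SD, n = 3 each; limma adjusted p = 0.0401). Cenpf, a large protein of the outer kinetochore, was at 7.84, 8.01 and 6.04 TPM in control and 6.68, 4.68 and 4.82 TPM in LIGHT libraries, which overlapped (limma adjusted p = 0.123).

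The chromosomal passenger complex consists of the kinase Aurora B and its partners INCENP, survivin and borealin, and 3 of these 4 genes fell. Cdca8, borealin, was at 55.1, 51.8 and 44.1 TPM in control and 38.3, 31.9 and 35.1 TPM in LIGHT libraries (log2 difference -0.51, SE 0.11, limma adjusted p = 0.0178). Birc5, survivin, was at 109, 118 and 98.4 TPM in control and 87.0, 80.0 and 81.2 TPM in LIGHT libraries (log2 difference -0.38, SE 0.09, limma adjusted p = 0.0225). Neither gene overlapped between groups. Aurkb fell from 43.9 ± 4.62 to 33.3 ± 2.15 TPM (mean ± SD, n = 3 each; limma adjusted p = 0.0312). Incenp, the scaffold, was at 45.3, 40.5 and 33.9 TPM in control and 35.9, 27.4 and 27.7 TPM in LIGHT libraries, with LIGHT replicate 1 above control replicate 3 (limma adjusted p = 0.0933). The ratio of Aurkb to Incenp was 1.11 in both groups (exact two-sided permutation p = 1).

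Of the 5 genes of spindle assembly and cytokinesis 2 fell. Tpx2, the activator of Aurora A on spindle microtubules, was at 54.9, 55.3 and 46.3 TPM in control and 42.1, 34.8 and 35.5 TPM in LIGHT libraries (log2 difference -0.47, limma adjusted p = 0.0225). Anln, the contractile-ring scaffold anillin, fell by 0.47 on the log2 scale (limma adjusted p = 0.0341). Prc1, which bundles the antiparallel microtubules of the central spindle, was at 63.4, 60.8 and 53.6 TPM in control and 52.9, 42.1 and 42.0 TPM in LIGHT libraries, just outside the threshold (limma adjusted p = 0.0554). Ect2, the exchange factor that activates RhoA for cleavage, was at 22.2, 18.7 and 16.1 TPM in control and 18.3, 11.5 and 13.7 TPM in LIGHT libraries, with overlap (limma adjusted p = 0.169). Nusap1, a microtubule-bundling protein, was at 30.4, 34.3 and 27.5 TPM in control and 31.03, 25.1 and 26.2 TPM in LIGHT libraries (log2 difference -0.16, SE 0.12, limma adjusted p = 0.367). Nusap1, Kif4 and Pttg1 were the 3 genes with the smallest differences of the 41.

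Both genes of the mitotic chromosome group fell. Mki67 encodes the proliferation marker Ki-67, which coats mitotic chromosomes. It was at 47.1, 45.3 and 41.5 TPM in control and 36.7, 24.2 and 28.7 TPM in LIGHT libraries (log2 difference -0.59, SE 0.15, limma adjusted p = 0.0269). Its groups did not overlap, but its call was lost without any 1 of 5 libraries, all except LIGHT replicate 1 (limma adjusted p between 0.0566 and 0.0821). Top2a, the topoisomerase that untangles sister chromatids, was at 96.0, 86.1 and 72.7 TPM in control and 71.0, 56.6 and 59.5 TPM in LIGHT libraries (log2 difference -0.44, limma adjusted p = 0.0458). LIGHT replicate 1 lay just below control replicate 3.

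Abundance did not sort the genes by their difference. Across the 41 genes, which share the same 6 libraries, the log2 difference and the log2 control level had a Pearson correlation of 0.09 and a Spearman correlation of 0.03.

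Promoters of mitotic genes often carry a cell-cycle genes homology region, TTTGAA, which is bound by the DREAM and MYB-MuvB complexes, next to CCAAT boxes bound by NF-Y. RefSeq promoter windows on GRCm38.p6, the build named in the submitters' processing notes, reach from 250 bases before a transcript start to 50 after it. They were available for 34 of the 41 genes (36 windows), and for 19 of the 34 the start was the outermost start of the gene. With both strands searched, TTTGAA was found in 26 of the 36 windows (72.2%) and in 17.9% of all 32851 windows of the same length. CCAAT was in 24 of the 36 (66.7%) and in 37.4% of all windows, and both together in 21 of the 36 (58.3%) and in 6.95% of all. TTTGAA lay within 40 bases of the start in 23 of the 36 and in 4.16% of all windows. The variant TTCGAA was in 3 of the 36 (1.56% of all), and TTTNNCGC, a pattern like that of E2F sites, in 4 of the 36 (5.17% of all). Matches of different motifs overlapped at 1 place in the 36 windows.

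The windows of 4 of the 5 genes with the smallest unadjusted p among those with both TTTGAA and CCAAT are printed here, so that the arrangement of motifs can be read beside the values. Each line gives the 130 bases before the start on the gene's strand, 5′ to 3′, and capitals mark TTTGAA and CCAAT or their reverse complements. They lie at chr2:69206214-69206343, minus strand (Spc25), chr5:30666756-30666885, plus strand (Cenpa), chr10:69352913-69353042, minus strand (Cdk1) and chr4:118437344-118437473, minus strand (Cdc20). Ccnb1, at chr13:100786487-100786616, minus strand, was added after its values were seen, as the cyclin with the largest difference and no TTTGAA in its window.
Spc25: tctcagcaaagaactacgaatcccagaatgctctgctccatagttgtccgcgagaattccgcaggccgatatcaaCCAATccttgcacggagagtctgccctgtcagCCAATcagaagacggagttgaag
Cenpa: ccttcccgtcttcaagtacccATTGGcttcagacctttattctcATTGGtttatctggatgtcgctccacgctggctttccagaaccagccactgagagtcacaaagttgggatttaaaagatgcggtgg
Cdk1: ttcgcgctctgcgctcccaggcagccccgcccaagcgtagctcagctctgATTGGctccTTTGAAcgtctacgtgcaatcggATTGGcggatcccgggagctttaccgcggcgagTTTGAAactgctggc
Cdc20: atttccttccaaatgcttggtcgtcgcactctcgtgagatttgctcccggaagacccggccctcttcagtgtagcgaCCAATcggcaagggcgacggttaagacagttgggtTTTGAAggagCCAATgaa
Ccnb1: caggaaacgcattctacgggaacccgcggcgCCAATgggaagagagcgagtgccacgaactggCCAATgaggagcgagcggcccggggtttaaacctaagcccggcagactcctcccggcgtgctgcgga

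In Cdk1 and Cdc20 a TTTGAA stands before the start, at -15 and -18 (counted from the first transcribed base as +1), and Cdk1 has a second at -71. In Spc25 and Cenpa it follows the start, at +25 and +17, in these stretches with the motif in capitals, at chr2:69206174-69206199 and chr5:30666892-30666917.
Spc25: cggtggagagTTTGAAattgaaagac
Cenpa: cgggtgatttTTTGAActgctggcga

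Many windows held more than 1 CCAAT box. Of the 36 windows 16 held 2 or more of them, as did 11.7% of all windows. In 6 of the 36 and in 1.35% of all windows 2 boxes started 31 to 35 bases apart, an interval chosen after the positions were seen. Spc25 has them at -55 and -23, Cdk1 at -80 and -48 and Ccnb1 at -99 and -67. The genes were also split by TTTGAA, without a test: the median log2 difference was -0.45 for the 24 genes with it and -0.54 for the 10 genes without it, with 17 and 7 called lower. A match of letters does not show binding, and no binding was measured here.

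**Figure D4:**
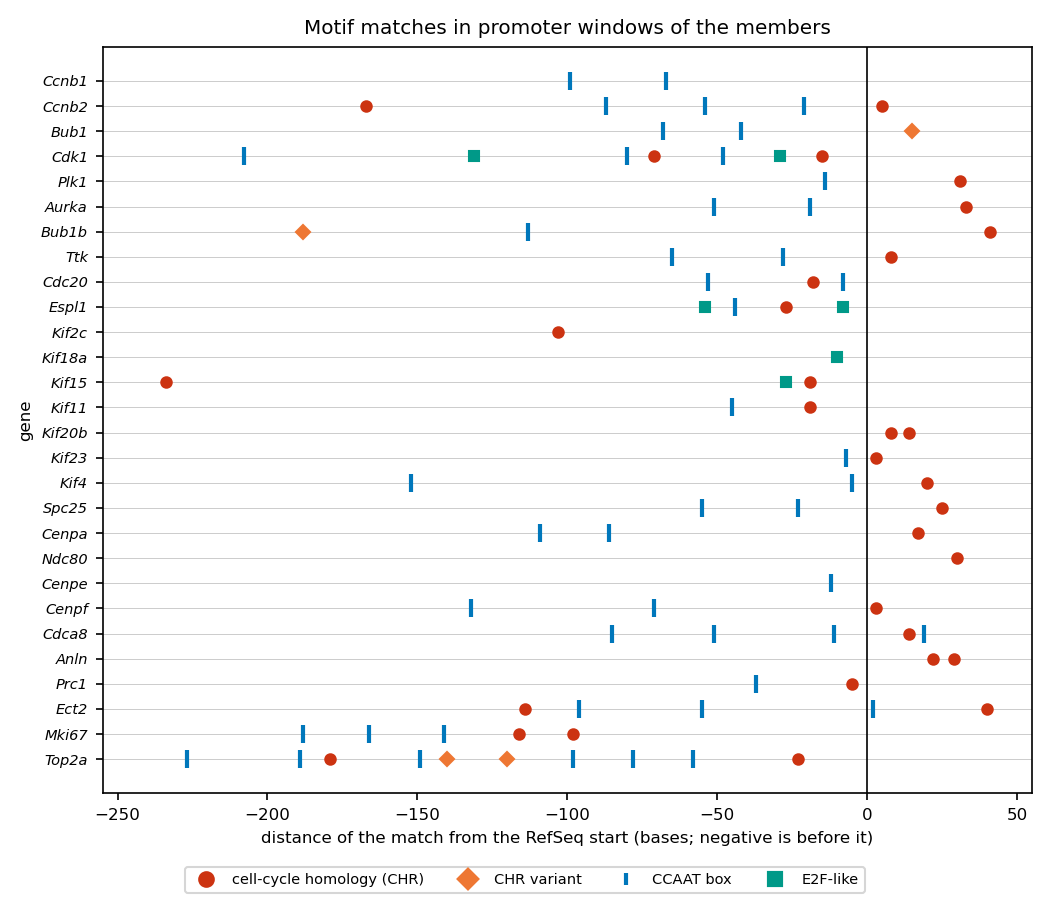
Positions of motif matches in the promoter windows of the 28 genes with any match, in bases from the RefSeq start, with 1 window per gene. TTTGAA (circles) gathers around the start, and CCAAT (bars) lies mostly before it.

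Another 126 mitosis genes outside the 41, listed by role, were all tested: 41 fell (32.5%) and 3 rose (2.38%), with a median log2 difference of -0.29. Of all tested genes 5.41% were called lower and 17.7% higher, so the share of rises in these lists lay below that of all tested genes. At an unadjusted limma p under 0.05, 9.9% of all tested genes were lower and 26.9% higher. In the list of other spindle, kinesin and cytokinesis genes 15 of 27 fell and 0 rose (22 and 0 at an unadjusted p under 0.05). Among them were Spag5, a protein of spindle microtubules (20.4 to 13.8 TPM, log2 difference -0.53, limma adjusted p = 0.00937), Shcbp1, a midbody protein (19.0 to 11.7 TPM, limma adjusted p = 0.0162), Ckap2 and Kpna2. In the list of mitotic control and transcription genes 12 of 28 fell and 1 rose. Cdca3, a trigger of Wee1 destruction, went from 75.1 to 49.0 TPM (limma adjusted p = 0.00405), and Ube2c, the ubiquitin-conjugating enzyme of the anaphase-promoting complex, from 390 to 281 TPM (limma adjusted p = 0.00928). Nek2, a centrosome kinase, and Cks2, a Cdk1-binding subunit, fell by 0.59 and 0.55 on the log2 scale. The gene that rose, named after its values were seen, was Lin37, a MuvB subunit of the DREAM complex (35.4 to 44.2 TPM, limma adjusted p = 0.0365). Foxm1, the factor that drives G2 genes together with MYB-MuvB, was named after its values were seen: it was at 38.5, 39.7 and 33.0 TPM in control and 31.7, 24.9 and 27.7 TPM in LIGHT libraries (limma adjusted p = 0.0481), and was called in 7 of 19 other settings.

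Of 35 other kinetochore and centromere genes 7 fell (20%) and 2 rose (5.71%), beside 5.41% and 17.7% of all tested genes. Trip13, which disassembles Mad2 complexes, fell from 22.6 to 14.8 TPM, and Cenpn, a reader of centromeric chromatin, from 26.9 to 19.9 TPM (limma adjusted p = 0.0166 and 0.0142). Cenpm, a subunit of the constitutive centromere network, rose from 56.5, 60.9 and 53.1 TPM in control to 113, 97.1 and 100 TPM in LIGHT libraries (log2 difference 0.85, SE 0.09, limma adjusted p = 0.00194). Cenpx rose from 55.5 to 80.1 TPM (limma adjusted p = 0.0169). Cenpm was called higher in 19 of 19 other settings, Cenpx in 12 and Lin37 in 8. All 7 centromere and kinetochore genes among the 41 had negative differences. At an unadjusted limma p under 0.05, 9.9% of all tested genes were lower and 26.9% higher. Of 21 condensin and cohesin genes 7 fell and 0 rose (8 and 0 at an unadjusted p under 0.05). They included Esco2, the cohesin acetyltransferase of S phase, and the condensin subunits Ncapd2, Ncaph and Ncapg, with log2 differences of -0.63, -0.45, -0.45 and -0.51. The 15 anaphase-promoting complex genes gave 0 calls in either direction with limma (0 lower and 1 higher at an unadjusted p under 0.05) and a median log2 difference of 0.03. The smallest p among them was that of Anapc16 (23.0 to 27.5 TPM, limma adjusted p = 0.0857).

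The nearest neighbours in the cell cycle were set beside the 41 genes in the same fit. Of 49 DNA replication genes 19 fell (38.8%) and 0 rose with limma, beside 5.41% and 17.7% of all tested genes. At an unadjusted p under 0.05 the counts were 30 and 0, and the median log2 difference was -0.32. The smallest p among the replication genes belonged to Gins1, a subunit of the replicative helicase (28.2 to 18.02 TPM, limma adjusted p = 0.00840), followed by Pole2, Mcm2 and Uhrf1. Of 18 G1 cyclins, kinases and inhibitors 0 fell and 2 rose, against the 17.7% of all tested genes called higher, with a median of 0.00. At an unadjusted p under 0.05 they gave 2 and 6, against 9.9% and 26.9% of all tested genes. The 2 were Cdkn2a, which encodes the inhibitor p16 and the p53 activator p19Arf (79.4 to 144 TPM, limma adjusted p = 0.00280), and Rbl2, the pocket protein of DREAM (9.57 to 12.0 TPM, limma adjusted p = 0.0493). Cdkn2a was called in 19 of 19 other settings and Rbl2 in 5. Whether the lists differ from each other was not tested.

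**Figure D5:**
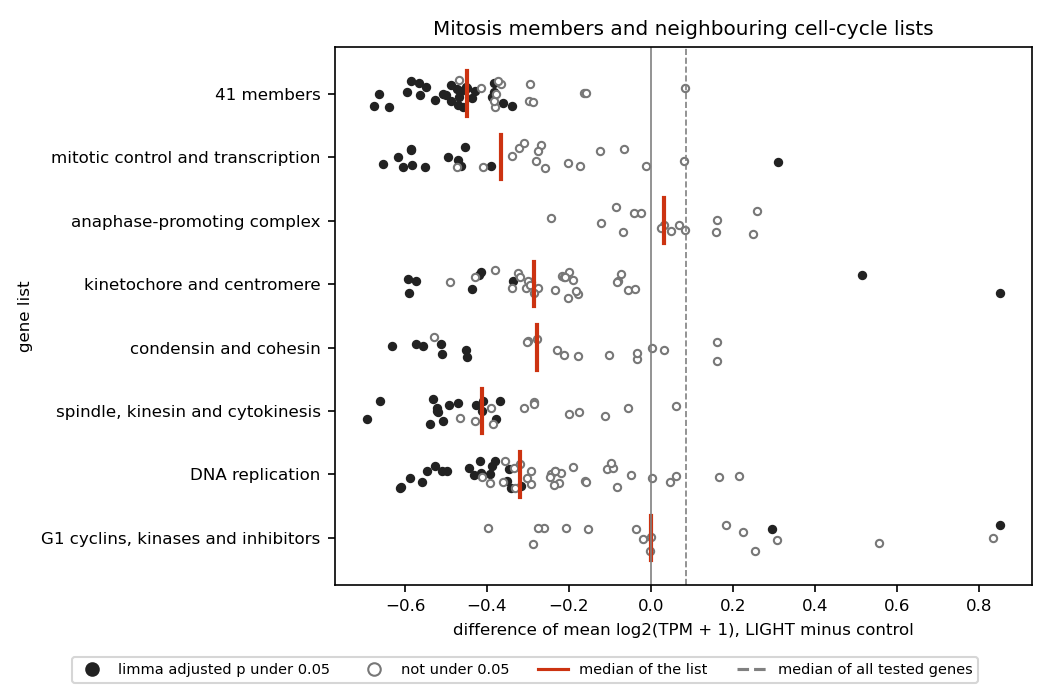
Difference of mean log2(TPM + 1), LIGHT minus control, of each tested gene in the 41 members, 5 other mitosis lists, DNA replication and G1 genes, with filled points past the threshold. The median of the list (red bar) is -0.45 for the 41 genes and 0.03 for the anaphase-promoting complex.

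Markers of other cell types were read in the same fit, beside the 17.7% of all tested genes that were called higher and the 5.41% called lower. Of 12 T cell markers 11 rose, and their summed level was 75.4 to 182 TPM in control and 281 to 340 TPM in LIGHT libraries. Of 11 macrophage and monocyte markers 6 rose (666 to 774 and 1060 to 1424 TPM). Of 10 endothelial markers 2 rose (47.4 to 86.7 and 74.9 to 134 TPM), and of 10 fibroblast markers 1 (429 to 588 and 629 to 808 TPM), shares near or below that of all tested genes. At an unadjusted limma p under 0.05, 4 endothelial and 3 fibroblast markers were higher, against 26.9% of all tested genes. The differences were positive for 10 of the 10 endothelial and 9 of the 10 fibroblast markers. Of 6 neutrophil markers tested 0 were called with limma, with 0 at an unadjusted p under 0.05 (1381 to 1777 and 429 to 2968 TPM). Of 11 B cell and plasma cell markers only Sdc1, which keratinocytes also express, passed the filter, and Ms4a1 and Pax5 were at 0.05 TPM or less in every library. The part of these cells in the mitosis values was not tested.

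Of 20 skeletal muscle markers, from the host tongue, 1 was called higher, and their sum was 3630 to 6115 TPM in control and 5689 to 10199 TPM in LIGHT libraries. All 20 differences were positive, with a median log2 difference of 0.66. At an unadjusted limma p under 0.05, 12 of the 20 were higher, against 26.9% of all tested genes. Red blood cell markers summed to 70.0 to 453 and 119 to 2086 TPM, and 0 of the 4 tested were called with limma (0 at an unadjusted p under 0.05). Both sums were highest in LIGHT replicate 2, where 29 of the 41 mitosis genes were lowest. With the mean of the muscle list as a covariate 0 of the 41 mitosis genes passed (14 at an unadjusted p under 0.05), at a median log2 difference of -0.41 and a median SE of 0.19, against -0.45 and 0.12 without it. With the red blood cell list 2 passed, Kif2c and Mad2l1, at a median of -0.34 and a median SE of 0.14.

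Of 19 basal keratinocyte and tumour cell markers 2 fell (10.5%) and 0 rose, beside 5.41% and 17.7% of all tested genes. At an unadjusted limma p under 0.05 the counts were 5 and 1, against 9.9% and 26.9% of all tested genes. The summed level of the 19 markers was 32791, 27952 and 28477 TPM in control and 27876, 20008 and 26410 TPM in LIGHT libraries, lower in LIGHT replicate 2 than elsewhere. Per 1000 TPM of this list the 41 mitosis genes summed to 51.9, 60.4 and 51.3 TPM in control and 48.3, 57.6 and 43.9 TPM in LIGHT libraries, which overlapped (54.5 ± 5.08 and 49.9 ± 6.996, mean ± SD, n = 3 each). Such a sum weighs the most abundant markers most, and Krt14 was the highest of the 19 in control tumours. When each library was shifted to an equal mean log2 level of this list, 1 of the 41 genes, Bub1, passed, and 38 of 41 differences were negative with a median of -0.28. At an unadjusted limma p under 0.05 the count was 14, and the median SE was 0.14. The median of all tested genes was 0.25 after this shift, against 0.09 with TPM as deposited. With the mean log2 level of the basal list as a covariate in place of a shift, 21 of the 41 genes passed, at a median of -0.34 and a median SE of 0.10. Of 16 markers of differentiated squamous cells 4 fell (Krtdap, Sprr1a, Sprr1b and Cnfn) and 2 rose (Krt4 and Dsg1a). These shares were 25% and 12.5%, beside 5.41% and 17.7% of all tested genes. The summed level of the 16 markers was 43671 to 60321 TPM in control and 32791 to 44522 TPM in LIGHT libraries, which overlapped. Sprr1a, a cornified envelope precursor, was at 12302 TPM on average in control and 4341 TPM in LIGHT tumours (log2 difference -1.48, limma adjusted p = 0.00236). Their part in the mitosis values was not tested.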

How the data were processed

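Gene values of the 6 libraries were deposited by the authors as TPM, 1 column per library, per the file headers, rounded to 2 decimals. Alignment tools HISAT and Bowtie2 and the build GRCm38.p6 are named, without role or version, in the submitters' processing notes; the quantifier, annotation and strand setting are not stated in them. Each column sums to the same total, so a rise of abundant genes lowers the others, and no counting interval can be given. No 2 libraries held identical values.

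The 13167 genes that reached 1 TPM in 3 or more libraries were fitted with limma 3.58.1 in R 4.3.3 (mean-variance trend, two-sided, Benjamini-Hochberg over all of them) on log2(TPM + 1), which understates the change of low genes. The script was tested on simulated data. The 41 genes, the other lists and the tests were chosen with earlier results of these data known. All 41 genes may be named; values in every library are given for the smallest and largest p and the highest and lowest level of each role group, and up to 4 genes are named from other lists by smallest p. Lin37, Foxm1, the values of Spc24 in every library and the Ccnb1 promoter were added after their values were seen. The window of the fifth gene by the promoter rule is not reported here. Unweighted trimmed-mean factors left out 30% of log ratios and 5% of levels at each end. The 19 alternatives are given in the closing section. Figures were drawn with matplotlib 3.10.9.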

Additional observations from a re-analysis of the deposited data

How the results depend on the processing

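With no filter on low values 16 of the 41 mitosis genes and 22 of the other 126 were lower. With the basal keratinocyte list equalized these counts were 1 and 3 (1 of the 126 was higher), with the skeletal muscle covariate 0 and 0 (1 higher), and with the red blood cell covariate 2 and 2 (1 higher). With trimmed-mean factors 79 of the 126 were lower and 1 higher, and with quantile normalization 78 were lower. Leaving out 1 library gave 4 to 36 of the 41 genes lower, and 10 to 50 lower and 1 to 3 higher of the 126. Over all tested genes, 1730 were lower with trimmed-mean factors, 1811 lower and 1399 higher with quantile normalization, 182 lower with the keratinocyte list equalized, 82 lower and 543 higher with the muscle covariate, and 205 lower and 975 higher with the red blood cell covariate. Leaving out 1 library gave 314 to 773 lower and 1145 to 1888 higher genes. The cause of these moves was not tested. The signs of Pttg1 (-0.017 with trimmed-mean factors, -0.00081 with quantile normalization), Kif4 (0.0047) and Nusap1 (0.010, both with the keratinocyte list equalized) turned; none of these was called. Pseudocounts of 0.1 and 0.5, the filter at 5 TPM, limma without the trend and robust limma gave 27 to 30 of the 41 genes lower. With the basal keratinocyte list as a covariate 21 of the 41 genes were lower. Of all tested genes 576 were lower and 2399 higher with that covariate. With the replicate number as a block 33 of the 41 genes were lower; the numbers were not taken to pair the libraries, since same-numbered libraries deviated from their group means with correlations of 0.37, 0.24 and 0.01 across genes, and control replicate 3 correlated better with LIGHT replicate 2. The unknown depth limits what can be said of the scarcest genes.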
